A study of Mus musculus with 59 samples.

Results

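The response of the brown adipose tissue (BAT) to thyroid hormone (TH) was followed here from 6 to 12 h after TH. The comparison took 8 of the 59 mice of the series, 4 at 6 h (mice B12, B13, B15 and B17) and 4 at 12 h (B19, B20, B21 and B23), chosen by their treatment label. All 8 were wild-type (WT) male C57BL/6J mice aged 8 to 12 weeks, and all had been made hypothyroid with propylthiouracil (PTU), a drug given in the food that blocks the synthesis of TH. T3 and T4, the active form of the hormone and its precursor, were then injected once into the peritoneum. Hypothyroid mice without hormone (PTU) and mice at 3 and 24 h, with 4 mice in each group, give the context. Male BATKO mice of the same strain and age, 5 fed PTU and 5 at 24 h after TH, are used once at the end and in 1 alternative fit, and their genetic change is not described in the sources used here. Every mouse was a separate library of whole tissue. Mice of each time point were different animals, and the sources used here do not give the clock hour of injection or of collection. Time since injection and hour of the day can therefore not be told apart, since a single PTU group stands for all the time points.

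TH enters brown adipocytes and binds the nuclear receptors TRα and TRβ, which sit on chromatin and change the transcription of nearby genes. BAT burns fatty acids and glucose to make heat through UCP1, a protein of the mitochondrial inner membrane, under the control of noradrenaline and of TH. Genes that TR controls directly respond within hours, and later changes also include genes that answer to the products of the first ones.

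Between 7805938 and 13512537 reads were assigned to genes in the 8 mice, and 13003 genes had a mean normalized count above 10 over the 20 WT mice and were tested with edgeR's quasi-likelihood test. Values for single mice are normalized counts (TMM scaling to library size), and an adjusted p-value (Benjamini-Hochberg over all genes tested) below 0.05 is a call. At 12 h, 207 genes were upregulated (1.59% of those tested) and 177 were downregulated (1.36%) relative to 6 h, or 2.95% in all. Before adjustment 2470 genes (19.0%) had a p-value under 0.05, and DESeq2 called 4.71% of the genes. At least a 2-fold change was seen for 61 of the upregulated and 70 of the downregulated genes, and the median absolute log2 fold change was 0.71 and 0.81. Over all genes tested the median log2 fold change was -0.00. For 774 genes (5.95%) all mice at 12 h were above all mice at 6 h, and for 675 genes (5.19%) all were below. Against PTU, 1579 genes (12.1%) were upregulated and 1417 (10.9%) downregulated at 6 h, and 1769 (13.6%) and 1577 (12.1%) at 12 h. Those comparisons share their PTU mice with each other and their treated mice with the present one.

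The number of calls depended on single mice. It was 65 upregulated and 52 downregulated without B12, 102 and 67 without B15, 97 and 78 without B17, and 71 and 40 without B21. Without B19, 137 genes were upregulated, and without B20, 86 were downregulated. Whichever of the 8 mice was removed, 57 of the upregulated and 24 of the downregulated genes kept their call. With the other settings added, 17 in all, 13 genes kept it. Among them were Gm32468, 9030619P08Rik, Fbxl2, Kit, Wee1, Nampt, Tsc22d1 and Gpr155 at higher level, and Tshr, B3galt2, Hp and Hivep2 at lower level.

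**Figure D1:**
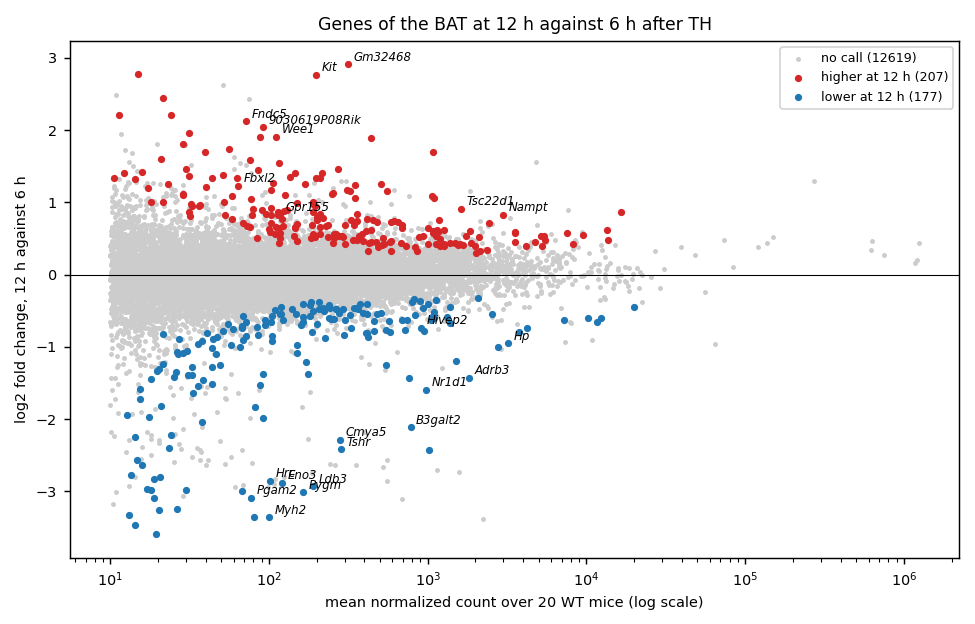
Log2 fold change at 12 h against 6 h (vertical axis) over the mean normalized count in the 20 WT mice (horizontal axis, log scale), one point per gene tested. The 207 upregulated genes are red, the 177 downregulated genes blue, and the genes named are 12 that kept their call under every setting, 7 genes of skeletal muscle, which lie near the bottom, and Fndc5, Nr1d1 and Adrb3.

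The level of skeletal muscle genes differed between the time points. The summed normalized count of 14 muscle genes was 22378, 3639, 11448 and 6780 in the mice at 6 h and 4330, 305.4, 50.3 and 865.6 at 12 h. One mouse at 12 h (B19) stood above one mouse at 6 h (B13), and the other mice did not overlap. In the mice at PTU, 3 and 24 h this sum ran from 47.8 to 16203. All 14 muscle markers had a log2 fold change below 0, with a median of -2.65, although 1 was called (against 1.36% of all genes downregulated). This was Myh2, a myosin of fast fibres, with 404, 64.8, 146 and 108 normalized counts at 6 h and 49, 4.13, 0 and 12.3 at 12 h (log2 fold change -3.36, standard error 0.81, adjusted p = 0.0312). Its call was lost without B12, B15, B20, B21 or B23, and its reads may be shared with the near-identical Myh1 and Myh4.

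Of the 12 called genes that fell most, among those with a mean count above 50 and no overlap between the groups, 7 belong to muscle. Muscle genes without a call, such as Atp2a1 (given below), are not in this ranking. Besides Myh2 these were Pgam2 and Eno3, muscle enzymes of glycolysis, Pygm, the muscle glycogen phosphorylase, and Ldb3, Hrc and Cmya5, of the sarcomere and the sarcoplasmic reticulum. Pygm, for instance, had 654, 118, 342 and 173 normalized counts at 6 h against 101, 16.5, 13.1 and 20 at 12 h. For Pygm the order of the mice was that of the muscle sum, with B12 highest at 6 h and B19 highest at 12 h. Pgam2, Eno3 and Ldb3 were also highest in these mice, but their lower mice at 12 h stood in another order. Pgam2, Pygm and Ldb3 lost their calls without the same mice as Myh2, Hrc also without B17, and Eno3 and Cmya5 without B12, B20 or B21. When the mean log2 level of the muscle markers was added to the model, 16 genes were called upregulated and 12 downregulated, of which 15 and 11 were among the calls without it. Calls were thus lost in both directions. Of the genes named in the text, 55 lost their call in this model, and those that kept it were the 12 named above, BC028528, Plin1, Mc2r and Klb. A lost call did not always come with a smaller fold change. Among the 7 muscle genes the log2 fold change in this model was -1.04 to -0.28, against -3.36 to -2.29 without the muscle level. Myh2 is itself one of the markers and the others vary with them, so that smaller values were fixed in advance. Pmepa1 was at -1.19 against -1.20, and Adipoq at -0.73 against -0.60. Without B12 and B19 the calls were 57 and 50. Brown adipocyte markers were expressed in every mouse, and their sum was 238242 to 276082 at 6 h and 211801 to 292239 at 12 h.

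**Figure D2:**
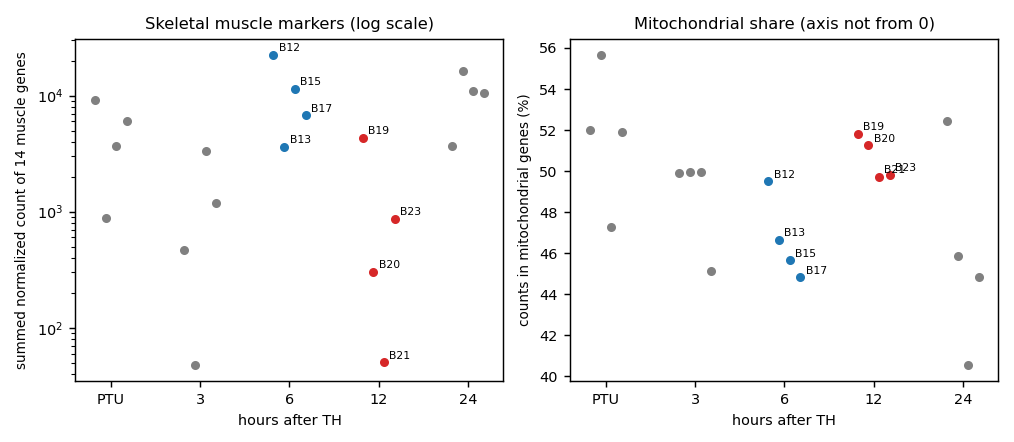
Left, summed normalized count of 14 skeletal muscle genes (log scale) and right, percentage of all counts in mitochondrial genes (axis not from 0), one point per mouse, by hours after TH. The mice at 6 h (blue) are mostly above those at 12 h (red) on the left, and all 4 are below them on the right, from 44.8 to 49.5% against 49.7 to 51.8%.

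Several genes at a low level in hypothyroid mice had a higher mean at 3 h, again at 6 h and again at 12 h. Gm32468, a long non-coding RNA gene on chromosome 10 from 93084206 to 93093727 (GRCm38), had 0.958 normalized counts on average in PTU mice and 22.1 at 3 h. It reached 54.5, 94.4, 84.4 and 48.7 in the mice at 6 h and 359, 631, 508 and 622 at 12 h. The groups did not overlap, and the difference was 7.53-fold (log2 fold change 2.91, standard error 0.32, adjusted p = 5.39e-05). At 24 h the mean was 962 ± 269.8 (SD, n = 4).

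9030619P08Rik, annotated as a transcribed pseudogene and located on chromosome 15 from 75427606 to 75431829, went from 36.4, 30.7, 61.9 and 54.7 at 6 h to 159, 186, 169 and 257 at 12 h (log2 fold change 2.04, standard error 0.26, adjusted p = 0.000395). As a pseudogene it may share reads with related genes, so that its counts are uncertain. Fbxl2, an F-box protein that selects proteins for degradation, had 38.3, 42.1, 54.3 and 47 at 6 h and 114, 103, 106 and 103 at 12 h (log2 fold change 1.23, standard error 0.17, adjusted p = 0.00108), with 4.85 on average in PTU mice. All the mice at 12 h were thus above those at 6 h for these genes.

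Fndc5, which encodes the precursor of irisin, had a mean of 2.98 in PTU mice and 207 at 24 h. It had 24.9, 12.5, 27.6 and 36.7 at 6 h and 93.8, 99, 117 and 146 at 12 h (log2 fold change 2.12, standard error 0.37, adjusted p = 0.00511), and kept its call whichever mouse was left out but not with the muscle level in the model (log2 fold change 2.17, adjusted p = 0.0782 by edgeR). Apln, the gene of the secreted peptide apelin, had 44, 109, 95.3 and 87.1 at 6 h and 231, 232, 300.4 and 209 at 12 h (log2 fold change 1.54, standard error 0.28, adjusted p = 0.00604), against 209 on average at 24 h. Id2, an inhibitor of basic helix-loop-helix transcription factors, had 294, 687, 629 and 668 at 6 h and 1761, 1922, 2015 and 1716 at 12 h (log2 fold change 1.70, standard error 0.41, adjusted p = 0.0304). In mouse B12 Id2 was far below the other mice at 6 h, and its call was lost without B12, B15, B17, B20 or B21.

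Other genes were low at 6 h and high at 12 h without such a progression from PTU. Kit, the receptor of stem cell factor, was at 329 on average in PTU mice and 65.5 at 3 h. It had 35.4, 75, 50.2 and 55.5 normalized counts at 6 h and 313, 454, 450.1 and 243 at 12 h, a 6.81-fold difference (log2 fold change 2.77, standard error 0.41, adjusted p = 0.00158), and its mean at 24 h was 179.7 ± 110.3 (SD, n = 4). The 12 h mice were thus near the level of hypothyroid mice, while those at 3 and 6 h were below it. Tsc22d1, a transcriptional regulator of the leucine zipper type, had 1445, 1103, 1479.9 and 1594 at 6 h and 2816, 1834, 2555 and 3381 at 12 h (log2 fold change 0.91, standard error 0.17, adjusted p = 0.00738). Gpr155, a membrane protein of lysosomes, had 95.7, 96.6, 94.5 and 94 at 6 h and 185, 176, 159.5 and 159 at 12 h (log2 fold change 0.84, standard error 0.13, adjusted p = 0.00207), a narrow range within each group. Part of the exons of Gpr155 and of Fbxl2 overlap a gene on the other strand, and the strand setting of the counting is not given in the sources used here.

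Dusp14, BC028528 and Vat1l were also among the 12 largest increases of called genes. Dusp14, a phosphatase of the MAP kinase pathway, had 13.4, 36.4, 21.7 and 35 at 6 h and 66.3, 93.5, 114 and 80.1 at 12 h (log2 fold change 1.74, standard error 0.31, adjusted p = 0.00563). BC028528 rose with a log2 fold change of 1.47, and shares 698 exonic bases with a gene on the opposite strand. Vat1l, with a log2 fold change of 1.44, lost its call without B15, B17 or B23. Lrpprc, which stabilizes mitochondrial mRNAs, rose by less but evenly, from 932, 841, 871 and 802 to 1206, 1231, 1172 and 1329 (log2 fold change 0.52, standard error 0.09, adjusted p = 0.00563).

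Tshr was among the 12 called genes that fell most. It encodes the receptor of thyrotropin, lies on chromosome 12 from 91384563 to 91549808 and had a mean of 663 normalized counts in PTU mice and 325 at 3 h. It had 257, 257, 142 and 119 at 6 h and 37.7, 41.3, 36.1 and 27.7 at 12 h, a 5.35-fold decrease (log2 fold change -2.42, standard error 0.30, adjusted p = 0.000395), and 212 ± 26.6 (SD, n = 4) at 24 h. The mice at 12 h were below all the other 16 WT mice. Mc2r, the receptor of corticotropin, had 88, 103, 61.9 and 53.8 at 6 h and 17.3, 41.3, 32.8 and 27.7 at 12 h (log2 fold change -1.37, standard error 0.25, adjusted p = 0.00634), after 191 on average in PTU mice. Both kept their calls whichever mouse was left out and with the muscle level in the model, and Mc2r lost its call without both B12 and B19.

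Adrb3, the β3-adrenergic receptor through which noradrenaline stimulates BAT, had 1879, 834, 989 and 891 at 6 h and 620.2, 299, 528 and 253 at 12 h (log2 fold change -1.43, standard error 0.35, adjusted p = 0.0317). The groups did not overlap, with a 2.69-fold decrease and B12 highest at 6 h, and the call was lost without B12, B15, B20, B21 or B23 and with the muscle level in the model. The mean of Adrb3 was 3985 in PTU mice and 1122 at 24 h. Klb, the co-receptor of FGF21, had 686, 813, 706 and 519 at 6 h and 365, 414, 464 and 357 at 12 h (log2 fold change -0.76, standard error 0.17, adjusted p = 0.0184). Adrb3 was the 1 downregulated gene among the 23 of adrenergic and cAMP signalling tested (against 1.36% of all genes), whose median log2 fold change was -0.12.

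B3galt2, a galactosyltransferase on chromosome 1 from 143640664 to 143654614, had, of the genes named, the lowest log2 fold change at 12 h against PTU, -5.55. Its mean was 2900.4 in PTU mice, and it had 371, 335, 212 and 153 at 6 h and 57.1, 67.4, 74.3 and 46.2 at 12 h (log2 fold change -2.11, standard error 0.35, adjusted p = 0.00382). It lies within Cdc73 on the opposite strand, with 679 exonic bases in common. Hp, which encodes the haemoglobin scavenger haptoglobin, had 3219, 5491, 4242 and 4355 at 6 h and 2077, 2468, 2346 and 2044 at 12 h (log2 fold change -0.95, standard error 0.15, adjusted p = 0.00207). Hivep2, a zinc finger transcription factor, had 1181, 1063, 1227 and 1329 at 6 h and 736, 774, 647 and 724 at 12 h (log2 fold change -0.74, standard error 0.10, adjusted p = 0.00108), and its mean at 6 h was above those of PTU, 3 and 24 h.

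**Figure D3:**
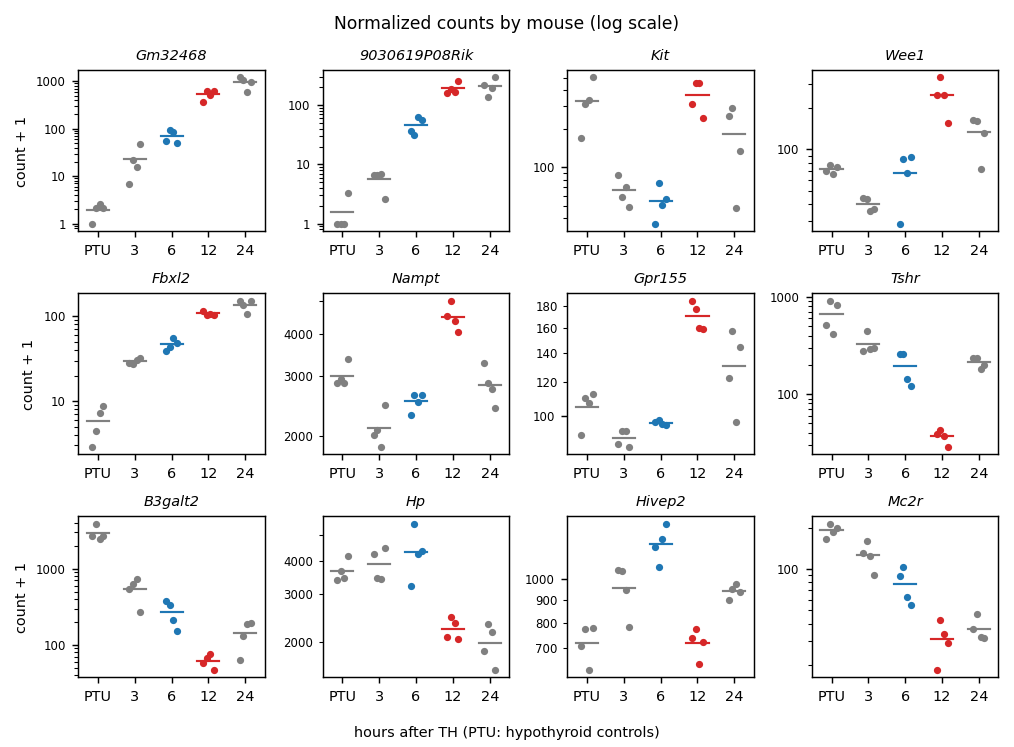
Normalized counts plus 1 (vertical axis, log scale, a different range in each panel) of 12 genes in each WT mouse, by hours after TH, with lines for the group means. Mice at 6 h are blue, those at 12 h red and the others grey, and in each panel the red points do not overlap with the blue ones.

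Genes of the circadian clock formed one of the groups with most calls. The clock is a feedback loop in which BMAL1 (gene Arntl) with CLOCK or NPAS2 activate the Per and Cry genes through E-box sequences, and PER and CRY proteins then inhibit them. REV-ERB (Nr1d1, Nr1d2) and ROR proteins such as RORα (Rora) compete for ROR elements, through which they repress or activate Arntl, and the factors DBP, TEF and HLF act through D-boxes. The stretches from 250 bases before to 50 after the start site of Per3, Tef and Arntl (RefSeq, GRCm38.p6) show each of these elements, in capitals, and are given, although none of the 3 had a call, because these genes stand at different places of the loop.

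Per3, chr4:151044616-151044915, minus strand, 2 D-boxes: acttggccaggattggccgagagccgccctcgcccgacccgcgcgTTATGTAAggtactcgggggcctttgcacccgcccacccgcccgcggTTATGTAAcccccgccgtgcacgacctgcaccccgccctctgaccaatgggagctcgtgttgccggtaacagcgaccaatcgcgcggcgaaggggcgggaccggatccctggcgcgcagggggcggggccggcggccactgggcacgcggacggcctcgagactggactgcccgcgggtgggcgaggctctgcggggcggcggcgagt

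Tef, chr15:81802423-81802722, plus strand, 1 E-box: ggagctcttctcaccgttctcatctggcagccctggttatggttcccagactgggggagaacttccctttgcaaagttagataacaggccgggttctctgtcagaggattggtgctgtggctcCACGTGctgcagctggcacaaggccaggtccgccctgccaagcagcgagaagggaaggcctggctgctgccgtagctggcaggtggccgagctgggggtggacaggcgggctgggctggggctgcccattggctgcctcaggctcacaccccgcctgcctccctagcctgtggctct

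Arntl, chr7:113207261-113207560, plus strand, 1 ROR element: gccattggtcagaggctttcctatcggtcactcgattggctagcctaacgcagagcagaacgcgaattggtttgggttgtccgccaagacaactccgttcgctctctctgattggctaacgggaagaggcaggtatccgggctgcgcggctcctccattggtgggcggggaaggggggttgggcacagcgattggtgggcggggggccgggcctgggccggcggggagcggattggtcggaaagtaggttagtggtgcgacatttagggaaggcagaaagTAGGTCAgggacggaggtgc

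The letters searched on both strands were CACGTG for the E-box, TTANGTAA for the D-box (N is any base) and TAGGTCA for the ROR element. An E-box was present in 12% of the 9248 tested genes that had such a stretch, a D-box in 1.72% and a ROR element in 2.26%. Of the 20 clock genes with a stretch, 6 had an E-box, 1 a D-box and 2 a ROR element. Of the 162 upregulated genes with a stretch, 11.1% had an E-box, 1.85% a D-box and 0.617% a ROR element. Of the 136 downregulated genes with a stretch, these shares were 10.3%, 0% and 3.68%. The 3 clock genes with both a call and a stretch had none of them in this window. Such a match is a description of the sequence and no measure of binding.

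Of 24 clock genes tested, 5 were upregulated (against 1.59% of all genes), 1 was downregulated (against 1.36%) and 18 had no call, with a median log2 fold change of 0.48. Among the activators, Arntl was low at both times, with 31.6, 11.4, 13.4 and 12.8 normalized counts at 6 h and 8.16, 8.25, 12 and 72.4 at 12 h, and 1 mouse at 12 h (B23) stood apart (log2 fold change 0.41, standard error 0.63, adjusted p = 0.765). It was at 169 on average in PTU mice and 184 at 24 h. Npas2 was likewise at 4.78, 3.41, 6.69 and 0.85 at 6 h and 6.12, 1.38, 5.46 and 1.54 at 12 h, against 25.3 to 117 at 24 h.

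Among the repressors, Per2 had 145, 210.3, 273 and 279 normalized counts at 6 h and 514, 502, 569 and 715 at 12 h (log2 fold change 1.34, standard error 0.34, adjusted p = 0.0394). This call was near the threshold, and was lost when any one of the 8 mice was left out and with DESeq2, although the mice of the groups did not overlap. Per3 had 154, 334, 253 and 349 at 6 h and 560.01, 614, 669 and 331 at 12 h, without a call (log2 fold change 1.00, standard error 0.30, adjusted p = 0.0786), and past the threshold with DESeq2, with no filter and without B23. Nr1d1 moved the other way, from 1803, 1299, 1528 and 1921 at 6 h to 543, 824, 366 and 444 at 12 h (log2 fold change -1.59, standard error 0.37, adjusted p = 0.0252), and its call was lost without B12, B17, B21 or B23. Its last exons overlap Thra by 263 bases on the opposite strand, and Thra had 228, 282, 273 and 273 at 6 h and 224, 226, 271 and 217 at 12 h without a call (adjusted p = 0.492). Nr1d2, its close relative, was even at 6 h (344, 343, 334 and 357) and had 454, 421, 390.01 and 274 at 12 h (log2 fold change 0.16, standard error 0.26, adjusted p = 0.778). Cry1 had 21.1, 21.6, 22.6 and 35.9 at 6 h and 42.8, 79.8, 92.9 and 78.5 at 12 h, groups that did not overlap but gave no call (log2 fold change 1.52, standard error 0.48, adjusted p = 0.086).

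The output genes had the highest median of the clock lists, 0.77, and all 8 had a log2 fold change above 0. Hlf had 322, 456, 459 and 659 at 6 h and 1108, 1345, 1208 and 869 at 12 h (log2 fold change 1.26, standard error 0.25, adjusted p = 0.00952). The other D-box factors were high at both times and had no call. Dbp had 287, 603, 654 and 765 at 6 h and 876, 817, 658 and 356 at 12 h (log2 fold change 0.23, standard error 0.47, adjusted p = 0.83), against 4.74 to 71.7 in PTU mice and 54.8 to 88.4 at 24 h. Tef had 703, 1038, 1238 and 1353 at 6 h and 1601, 1376, 1513 and 1118 at 12 h (log2 fold change 0.37, standard error 0.26, adjusted p = 0.465), against 162 to 328 in PTU mice.

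Wee1, a kinase that delays mitosis and a clock output, had 27.8, 84.1, 66.1 and 86.3 at 6 h and 249, 334, 249 and 156 at 12 h (log2 fold change 1.91, standard error 0.27, adjusted p = 0.00115). Nampt, which makes a precursor of NAD+ and is also secreted, had 2299, 2649, 2515 and 2651 at 6 h and 4525, 5028, 4383 and 4048 at 12 h (log2 fold change 0.83, standard error 0.11, adjusted p = 0.000395). Both kept their calls under each of the 17 settings, and were among the 3 clock genes called with the muscle level in the model. Within the 6 h group, B12 had the lowest count of Wee1, Per2, Per3, Hlf, Dbp and Tef and the highest of Arntl. Within the 12 h group, B23 had the lowest count of Wee1, Per3, Hlf, Dbp and Tef.

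**Figure D4:**
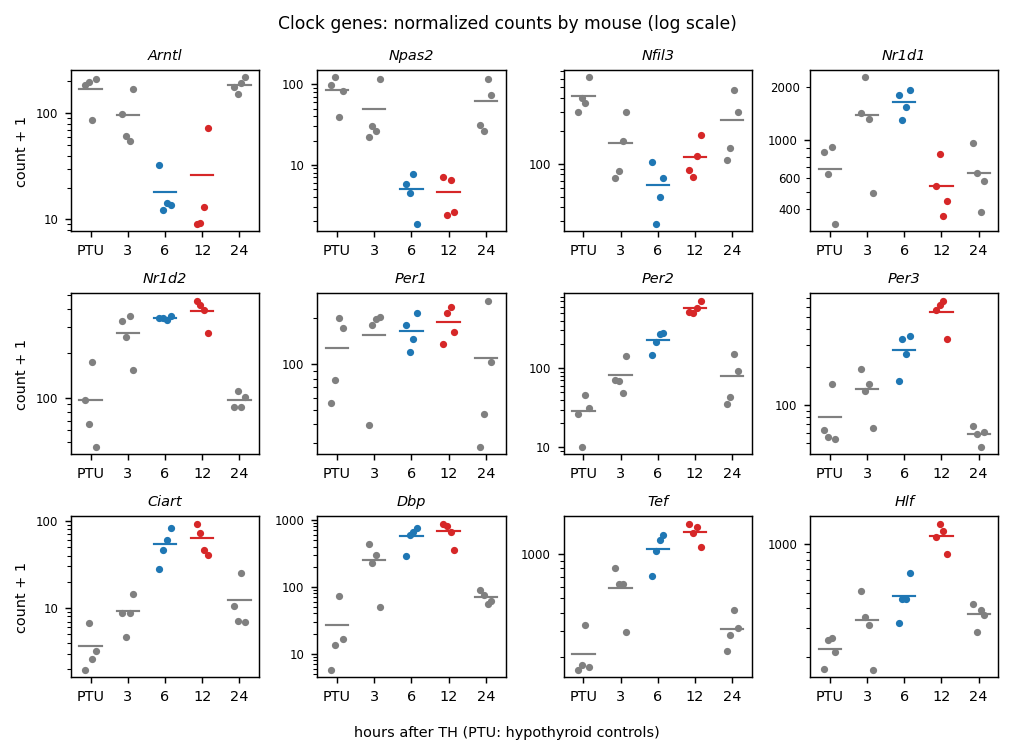
Normalized counts plus 1 (vertical axis, log scale, a different range in each panel) of 12 clock genes in each WT mouse by hours after TH, with lines for the group means. At 6 h (blue) and 12 h (red), Arntl and Npas2 lie below, and Dbp, Tef and Nr1d2 above, the PTU and 24 h mice, and Nr1d1 and Hlf differ between the blue and red points.

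Cholesterol synthesis had the largest number of calls of any list. The enzymes of this pathway turn acetyl-CoA into squalene and sterols, and are induced together by SREBP2 when sterols are scarce. Of 23 genes tested, 8 were upregulated (against 1.59% of all genes) and 0 downregulated (against 1.36%), 22 had a log2 fold change above 0, and the median was 0.66, against -0.00 over all genes. In the early part of the pathway, Mvd (log2 fold change 1.46) was called but not without any one mouse other than B13. Fdft1, the squalene synthase, had 139, 234, 161 and 208 at 6 h and 285, 655, 441 and 242 at 12 h (log2 fold change 1.13, standard error 0.23, adjusted p = 0.0118), and lost its call without B12. Sqle, the squalene epoxidase, had 112, 183, 108 and 97.4 at 6 h and 239, 409.9, 316 and 291 at 12 h (log2 fold change 1.33, standard error 0.26, adjusted p = 0.00933), with its 12 h mice all above those at 6 h.

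In the sterol part, Cyp51 had 168, 318, 211 and 189.7 at 6 h and 482, 498, 555 and 548 at 12 h (log2 fold change 1.24, standard error 0.27, adjusted p = 0.0175), and lost its call without B12, B15, B17 or B21. Hsd17b7 had 220.1, 222, 206 and 184 at 6 h and 460.05, 341, 542 and 447 at 12 h (log2 fold change 1.11, standard error 0.19, adjusted p = 0.00493), and kept it whichever mouse was left out. Msmo1 was called at a log2 fold change of 0.77, again not without any one mouse other than B13, and Stard4, a carrier of cholesterol between membranes, rose from 70.8, 69.3, 57.7 and 59.8 at 6 h to 115, 133, 110.3 and 97 at 12 h (log2 fold change 0.83, standard error 0.16, adjusted p = 0.0075).

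The means of Hsd17b7 and Stard4 were 220.1 and 74.8 in PTU mice and 207 and 69.8 at 24 h, so that their 12 h level was the highest of the time course. This did not hold for the whole list. Hmgcs1 had 1925, 2693, 1610 and 2023 in PTU mice and 1000, 907, 1091 and 895 at 12 h. Dhcr7 had 322, 506, 314 and 225 at 12 h and 763, 720, 326 and 506 at 24 h. Sqle had 152, 189, 194 and 344 in PTU mice, all above its mean of 125 at 6 h. Srebf2 itself had 220.1, 231, 228 and 240.1 at 6 h and 248, 208, 259 and 291 at 12 h (log2 fold change 0.13, standard error 0.14, adjusted p = 0.65). The number of upregulated genes of this list was 4 without B12, 5 without B15, B17 or B21, 5 without both B12 and B19, and 0 with the muscle level in the model. In that model Hsd17b7, Stard4, Cyp51, Mvd and Sqle had log2 fold changes of 1.09, 0.80, 1.29, 1.51 and 1.14, against 1.11, 0.83, 1.24, 1.46 and 1.33 without the muscle level, and Fdft1 and Msmo1 had 0.67 each, against 1.13 and 0.77.

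Of 19 genes of fatty acid synthesis 1 was upregulated (against 1.59% of all genes), 17 had a log2 fold change above 0, and the median was 0.39. The upregulated gene was Elovl6, which elongates palmitate, with 13651, 14102, 13328 and 12629.9 at 6 h and 23944, 27676, 26516 and 19868 at 12 h (log2 fold change 0.87, standard error 0.16, adjusted p = 0.00638). Fasn, the fatty acid synthase, had 35514, 43749, 26012 and 33848 at 6 h and 30354, 68404, 47712 and 21533 at 12 h, with the 6 h values inside the range of the 12 h ones (log2 fold change 0.27, standard error 0.29, adjusted p = 0.651). Thrsp, a known target of TH in lipogenic tissues, had 21585, 42506, 31812 and 35355 at 6 h and 37559.7, 58974, 41097 and 33124 at 12 h (log2 fold change 0.38, standard error 0.21, adjusted p = 0.338).

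Of 15 genes of lipolysis and the lipid droplet 2 were downregulated (against 1.36% of all genes) and 0 upregulated (against 1.59%), 6 had a log2 fold change above 0, and the median was -0.14. Plin1, the coat protein that gates lipolysis, had 11228, 11256, 11205 and 10638 at 6 h and 7094, 7647, 7812 and 6617 at 12 h (log2 fold change -0.60, standard error 0.11, adjusted p = 0.0077). Lipe, the hormone-sensitive lipase, had 7599, 7792, 7782 and 8256 at 6 h and 4541, 6145, 5556 and 4101 at 12 h (log2 fold change -0.63, standard error 0.13, adjusted p = 0.0144). Both kept their calls whichever mouse was left out and lost them without both B12 and B19, and Lipe also lost its call with the muscle level in the model, at a log2 fold change of -0.78 (adjusted p = 0.0583 by edgeR). Pnpla2, the lipase of the first step, had 24531, 16825, 19858 and 26273 at 6 h and 16075, 26659.6, 17628 and 17777 at 12 h without a call (log2 fold change -0.16, standard error 0.18, adjusted p = 0.666).

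Adipoq, the gene of adiponectin, had 15899.8, 15652, 14558 and 15313 at 6 h and 9426, 12356, 9695 and 9169 at 12 h (log2 fold change -0.60, standard error 0.12, adjusted p = 0.0123), and its mean at 24 h was 3767. Plin1 and Adipoq were the 2 genes called among the 10 brown adipocyte markers (against 1.36% of all genes downregulated), 8 of which had a log2 fold change below 0, with a median of -0.28. In tissue samples such as these, fewer cells of a type and less RNA per cell cannot be told apart. Gpat3, of triglyceride synthesis, fell by 1.08 on the log2 scale (adjusted p = 0.0365), and 1 of 15 genes of that list was called (against 1.36% of all genes downregulated). That call was lost without B12, B13, B15, B20, B21 or B23. Cyp2e1, a cytochrome P450 enzyme, had 5472, 5964, 4462 and 4044 at 6 h and 2911, 2459.6, 1718 and 2843 at 12 h (log2 fold change -1.01, standard error 0.19, adjusted p = 0.00638). Cat, the peroxisomal catalase and the 1 downregulated gene of 23 of antioxidant defence (against 1.36%), had 12175, 12304, 13533 and 13145 at 6 h and 9924, 8669, 6886 and 6828 at 12 h (log2 fold change -0.66, standard error 0.14, adjusted p = 0.013), with the call lost without B21. Ftl1, the ferritin light chain, fell by 0.77 (adjusted p = 0.00382), and its reads may be shared with pseudogene copies.

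Hr and Klf9, both known to answer early to T3, had no call between 6 and 12 h. Hr, a co-repressor of nuclear receptors, had 101, 102, 122 and 168 normalized counts at 6 h and 97.9, 158, 166 and 203 at 12 h (log2 fold change 0.32, standard error 0.24, adjusted p = 0.492), against 12.9 on average in PTU mice. Klf9, a zinc finger transcription factor, had 3646, 3226, 3347 and 3118 at 6 h and 3448, 3431, 3603 and 3910.5 at 12 h (log2 fold change 0.11, standard error 0.10, adjusted p = 0.581), against 972 in PTU mice. The 2 groups overlapped for both, at levels far above those of hypothyroid mice. Of 18 known T3 responsive genes, 1 was upregulated (against 1.59% of all genes) and 0 downregulated, with a median of 0.10. This was Gpd2, the mitochondrial glycerol-3-phosphate dehydrogenase, with 10764, 12409.6, 12064 and 10713 at 6 h and 16174, 18409.98, 19173 and 16943 at 12 h (log2 fold change 0.62, standard error 0.11, adjusted p = 0.00563), and 7473 on average in PTU mice. Its call was lost with the muscle level in the model, at a log2 fold change of 0.53 (adjusted p = 0.137 by edgeR).

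Trp53inp2, which takes part in autophagy, had 6286, 5564, 6138 and 6110.3 at 6 h and 6516, 5985, 6927 and 6441 at 12 h (log2 fold change 0.10, standard error 0.14, adjusted p = 0.737). Stat5a and Desi1 had log2 fold changes of -0.24 and 0.11, Pgrmc1 and Maged2 of -0.37 and -0.70, and Acot1 of 0.27, none with a call, although Pgrmc1 passed the threshold without B19. For Maged2 all the mice at 12 h were below those at 6 h (adjusted p = 0.154). Thrb, one of the receptor genes, had 354, 474, 389 and 385 at 6 h and 482, 552, 592 and 393 at 12 h (log2 fold change 0.34, standard error 0.11, adjusted p = 0.107), and passed the threshold without B23. Of 15 partners and coregulators of TR, 0 were called by edgeR or DESeq2 (against 2.95% and 4.71% of all genes), and 4 had an unadjusted p-value under 0.05 (against 19.0%).

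Of 24 thermogenic genes tested, 1 was upregulated (against 1.59% of all genes), 1 downregulated (against 1.36%) and 22 had no call, with a median log2 fold change of -0.17. For 6 of them all mice at 12 h were below all mice at 6 h (against 5.19% of all genes), and for 1 all were above (against 5.95%). Ucp1, the protein that makes heat, had 123128, 119177, 143257 and 119606 at 6 h and 156629.6, 106572, 191092 and 201266 at 12 h (log2 fold change 0.38, standard error 0.21, adjusted p = 0.333), and the spread at 12 h was wide, since B20 was below all the 6 h mice and the others above them. Dio2, the deiodinase that makes T3 from T4 within the tissue, had 8238, 4393, 6502 and 6760.5 at 6 h and 3527, 2257, 6312 and 6955 at 12 h (log2 fold change -0.44, standard error 0.52, adjusted p = 0.684). Ppargc1a, a coactivator of mitochondrial biogenesis, had 3594, 2022, 1357 and 1579 at 6 h and 776, 658, 609.6 and 1443 at 12 h (log2 fold change -1.30, standard error 0.39, adjusted p = 0.0772), and passed the threshold with no filter and without B23. The downregulated gene of the list was Adrb3. The upregulated gene was Letmd1, a mitochondrial inner membrane protein required in BAT, with 7904, 6519, 8198 and 8215 at 6 h and 10651, 9774, 11297 and 9475 at 12 h (log2 fold change 0.42, standard error 0.10, adjusted p = 0.0263), a call lost without B12, B13, B19 or B21.

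Mitochondrial genes took a higher share of the counts at 12 h, 50.7% ± 1.05 (SD, n = 4) against 46.7% ± 2.04 (SD, n = 4), and the groups did not overlap (exact permutation test, two-sided, p = 0.0286, the smallest p that 4 against 4 mice allow). With 3 mice in a group this test cannot pass the threshold. Leaving mitochondrial genes out of the scaling gave 173 upregulated and 194 downregulated genes, so that upregulated genes were 47.1% of the calls instead of 53.9%. Of the 13 listed protein genes of the mitochondrial genome, 8 were tested by edgeR. For each of these the log2 fold change was above 0, from 0.16 to 0.47. They had 0 calls by edgeR or DESeq2 (against 2.95% and 4.71% of all genes) and an unadjusted p-value under 0.05 for 4 (against 19.0%). The share of counts also takes in mitochondrial genes that are not in this list.

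Nuclear genes of the mitochondrion had medians slightly above 0. In complex I, 27 of 36 genes were above 0, with a median of 0.17 and 1 upregulated gene (against 1.59% of all genes), Ndufv2 (log2 fold change 0.40, standard error 0.10, adjusted p = 0.0389). In the TCA cycle list 17 of 22 were above 0, with a median of 0.13 and 2 upregulated (against 1.59% of all genes). These were Mdh1, the cytosolic malate dehydrogenase of the malate-aspartate shuttle, with 6859, 9302, 9569 and 6963 at 6 h and 12655, 10347, 12220.3 and 12438 at 12 h (log2 fold change 0.54, standard error 0.12, adjusted p = 0.0172), and Mpc2, a subunit of the mitochondrial pyruvate carrier, at a log2 fold change of 0.48. Of 76 mitochondrial ribosomal proteins 2 were upregulated, near the share over all genes, 1.59%. These were Mrps33 and Mrps35, at 0.47 and 0.44 on the log2 scale, and 53 of the 76 were above 0, with a median of 0.12. For 16 of the 76, all mice at 12 h were above all mice at 6 h (against 5.95% of all genes). The same held for 10 of the 36 genes of complex I and 4 of the 22 of the TCA cycle. In each of these lists, all mice at 12 h were below for 0 genes (against 5.19%). The calls of Ndufv2, Mdh1, Mpc2, Mrps33 and Mrps35 were each lost without B12 and without B21. Those of Ndufv2, Mpc2 and Mrps33 were also lost without B15, B17 or B19, that of Ndufv2 without B20, that of Mpc2 without B23, that of Mdh1 without B17, and that of Mrps35 without any one mouse.

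In complexes II to V, Atp5h was upregulated and Atp5g1 downregulated among 35 genes (against 1.59% and 1.36% of all genes), with adjusted p = 0.0263 and 0.0394. Both calls were lost without B12, B15, B17, B19, B21 or B23, that of Atp5g1 also without B20, and both genes may share reads with pseudogenes. Of 26 genes of fatty acid oxidation, Slc25a20, the carnitine carrier, was upregulated (log2 fold change 0.45, standard error 0.11, adjusted p = 0.0357) and Acads, which acts on short chains, was downregulated (log2 fold change -0.66, standard error 0.14, adjusted p = 0.0145), against the same shares of all genes. The first call was lost without B12, B13, B17, B19 or B21 and the second without B17. Cytosolic ribosomal proteins, with 80 genes tested, had 0 calls by edgeR and 1 by DESeq2 (against 2.95% and 4.71% of all genes), 9 genes at an unadjusted p-value under 0.05 (against 19.0%), and a median of 0.00.

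**Figure D5:**
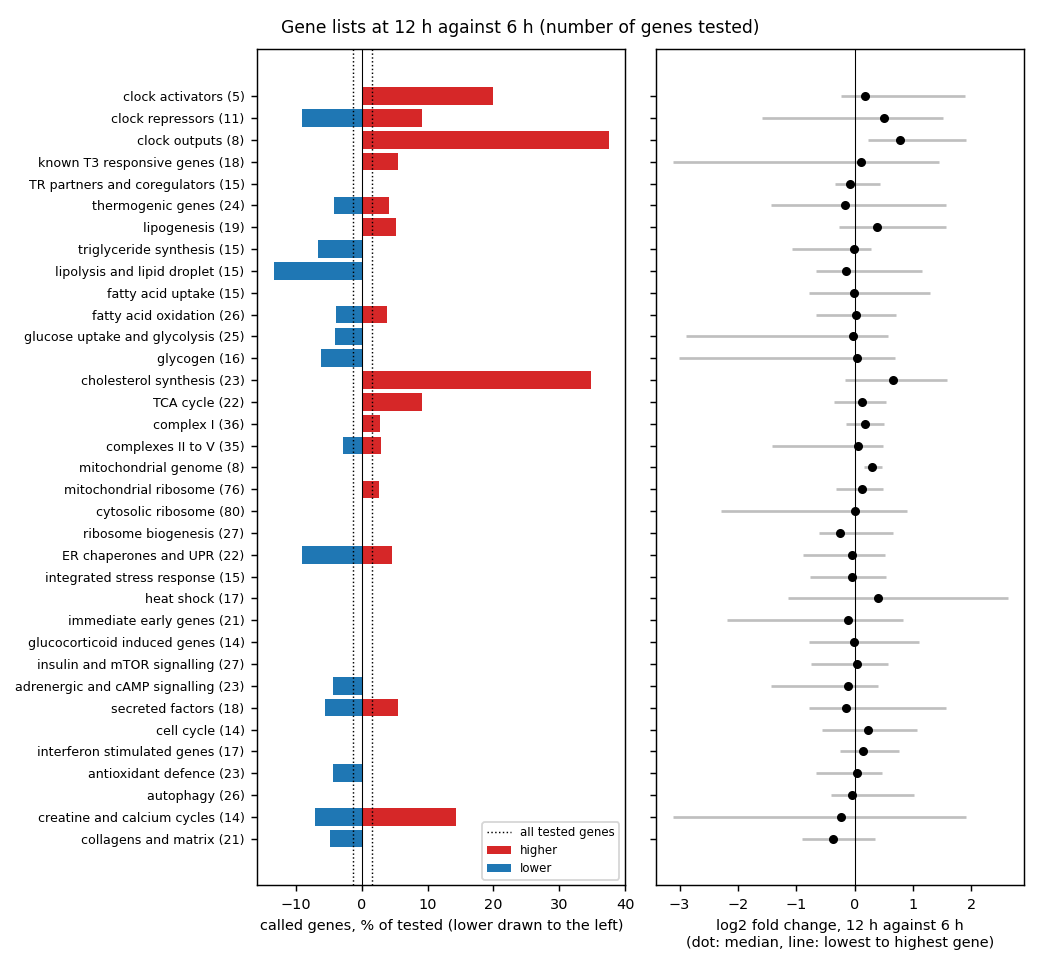
Gene lists at 12 h against 6 h, with the number of genes tested in parentheses. Left, percentage of tested genes upregulated (red, to the right) and downregulated (blue, drawn to the left of 0), with dotted lines at the shares over all genes, 1.59% and 1.36%. Right, median (dot) and range (line) of the log2 fold change. Clock outputs and cholesterol synthesis have the longest red bars, and the ranges of the glycolysis, glycogen, T3 and calcium lists reach low values through muscle genes.

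Several lists held muscle genes. The decreases of Eno3 in glycolysis, Pygm in the glycogen list and Ckmt2 among creatine and calcium cycle genes came with the highest 12 h count in B19, as for the muscle sum, and Atp2a1, the calcium pump of fast muscle, had 2790.5, 488, 1283 and 795 at 6 h and 455, 44, 4.37 and 100.1 at 12 h (log2 fold change -3.11, standard error 0.93, adjusted p = 0.0738), past the threshold with no filter and without B19. With the muscle level in the model Eno3, Pygm and Ckmt2 lost their calls, at log2 fold changes of -0.72, -0.71 and -0.24, and Atp2a1 was at -0.29. Since these genes vary with the markers, smaller fold changes in this model were fixed in advance. Ckb, the brain-type creatine kinase that BAT also expresses, had 29.7, 26.1, 44.3 and 78.6 at 6 h and 92.8, 45.4, 116 and 444 at 12 h (log2 fold change 1.91, standard error 0.51, adjusted p = 0.0466). B23 set most of that difference, and the call was lost without B12, B13, B15, B21 or B23. Itpr1, a calcium channel of the endoplasmic reticulum, rose from 955, 1033, 969.9 and 1203 at 6 h to 1411, 1721, 1909.6 and 1223 at 12 h (log2 fold change 0.59, standard error 0.12, adjusted p = 0.0145), a call lost without B12 or B21.

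Genes of the extracellular matrix and of stromal cells lay below 0 on the log2 scale. Of 21 collagen and matrix genes 17 were below 0, with a median of -0.37 and 1 downregulated gene (against 1.36% of all genes), Col6a1 (adjusted p = 0.0452), whose call was lost without B12, B15, B17, B19, B20 or B21. Of 10 fibroblast markers 9 were below 0, with a median of -0.44, and Dpt was downregulated (1 of 10, against 1.36% of all genes), from 527, 477, 514 and 576 at 6 h to 349, 294, 182 and 368 at 12 h (log2 fold change -0.82, standard error 0.16, adjusted p = 0.00928). Loxl2, which crosslinks collagen, had 68.9, 56.8, 58.5 and 55.5 at 6 h and 34.7, 23.4, 20.8 and 32.3 at 12 h (log2 fold change -1.11, standard error 0.19, adjusted p = 0.00511). Fbn1, the fibrillin of microfibrils, fell by 0.98 (adjusted p = 0.0154), without a call when B12 or B21 was left out. Pmepa1, which restrains TGF-β signalling, had 2228, 1606, 1600.3 and 1828 at 6 h and 723, 605, 1053 and 787 at 12 h (log2 fold change -1.20, standard error 0.19, adjusted p = 0.0029), and 378 on average at 24 h. Col6a1, Dpt, Loxl2, Fbn1 and Pmepa1 all lost their calls with the muscle level in the model, with adjusted p-values by edgeR from 0.0583 to 0.378. Their log2 fold changes there were -0.38, -0.56, -0.98, -0.80 and -1.19 in this order, against -0.48, -0.82, -1.11, -0.98 and -1.20 without the muscle level. The summed count of the fibroblast markers was 4868 to 7257 at 6 h and 3418 to 6064 at 12 h, and B12 had the highest at 6 h, as for the muscle sum. The part of this difference in the decreases was not tested.

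All 10 macrophage markers tested were below 0, with a median of -0.39, 0 calls by edgeR or DESeq2 (against 2.95% and 4.71% of all genes) and 0 unadjusted p-values under 0.05 (against 19.0%). Their summed counts overlapped between the groups, at 739 to 1003 at 6 h and 451 to 1160 at 12 h. Endothelial markers had, against the same shares, 0 calls by edgeR among 12 genes, 1 by DESeq2, 3 unadjusted p-values under 0.05 and a median of -0.04. Markers of T and B cells had a summed count of 157 to 222 at 6 h and 114 to 444 at 12 h.

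Among 22 genes of endoplasmic reticulum chaperones and of the unfolded protein response, Herpud1 was upregulated (against 1.59% of all genes), and Syvn1 and Calr were downregulated (against 1.36%). Syvn1, a ubiquitin ligase of protein degradation, had 291, 232, 256 and 372 at 6 h and 153, 158, 139.8 and 176 at 12 h (log2 fold change -0.88, standard error 0.19, adjusted p = 0.0175), a call lost without B17 or B21. The mice overlapped for Herpud1, and its call was lost without B12 or B21. That of Calr was lost without any one mouse but B13. Fhl3, a LIM domain protein, had 114, 95.5, 156 and 197 at 6 h and 42.8, 39.9, 42.6 and 72.4 at 12 h (log2 fold change -1.53, standard error 0.30, adjusted p = 0.00956), and Cdsn fell by 1.99 (adjusted p = 0.0389), without a call when B13, B15, B17, B19, B21 or B23 was left out. No gene was called by edgeR in the lists of heat shock, integrated stress response, immediate early, glucocorticoid induced, insulin and mTOR, interferon, cell cycle, autophagy, ribosome biogenesis and fatty acid uptake genes. Of their 186 genes tested, DESeq2 called 3 (against 4.71% of all genes, and 2.95% by edgeR), and 40 had an unadjusted p-value under 0.05 (against 19.0%).

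The genes of the early and late responses to TH were then compared, using the mice at 3 h, 24 h and PTU, whose means do not enter the 12 h against 6 h difference, though their spread enters its standard error. Of the 663 genes upregulated at 3 h against PTU (5.10% of those tested), 20 (3.02%, against 1.59% of all genes) were higher and 15 (2.26%, against 1.36%) lower at 12 h than at 6 h, with a median log2 fold change of -0.03. Of the 532 downregulated at 3 h (4.09%), 23 (4.32%) were higher and 15 (2.82%) lower, against the same shares of all genes, with a median of 0.07. Early responsive genes thus gave calls in both directions between 6 and 12 h. The genes upregulated at both steps were 7 without B12, 13 without B15 and 9 without B21. Those downregulated at 3 h and then higher were 11 without B12, 8 without B15, 9 without B17, 12 without B20, 8 without B21 and 36 without B23.

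Genes called both at 24 h against PTU and at 12 h against 6 h mostly had the same sign in both. Of the 2239 upregulated at 24 h (17.2%), 113 (5.05%, against 1.59% of all genes) were higher at 12 h than at 6 h and 16 (0.715%, against 1.36%) lower, and they made up 54.6% of all genes higher at 12 h. Of the 2013 downregulated at 24 h (15.5%), 67 (3.33%, against 1.36%) were lower and 11 (0.546%, against 1.59%) higher, and they made up 37.9% of all genes lower at 12 h. The 8396 genes called neither at 3 h nor at 24 h held 70 of the genes higher (0.834%, against 1.59%) and 85 of those lower (1.01%, against 1.36%) at 12 h. The count of 113 was 38 without B12, 65 without B15, 62 without B17 and 42 without B21, and that of 67 was 24, 31, 29 and 20 without these mice, 39 without B20 and 41 without B23. The same sign does not mean that a gene came closer to its level at 24 h. The mean of Tshr, for instance, was 194 at 6 h, 35.7 at 12 h and 212 at 24 h, and that of Hlf was 474, 1132.5 and 365.

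In BATKO mice, TH for 24 h called 0 of 14178 genes against BATKO mice fed PTU, both with edgeR and with DESeq2, and 673 genes had an unadjusted p-value under 0.05. Gm32468 had 2.01 ± 4.5 normalized counts (SD, n = 5) in BATKO mice fed PTU and 3.17 ± 3.96 (SD, n = 5) 24 h after TH. Fbxl2 had 4.57 ± 1.8 and 9.08 ± 5.08, Apln 4.95 ± 5.63 and 17.97 ± 13.1, and Tshr 155 ± 23.9 and 137 ± 49.3. The log2 fold change of Apln in BATKO mice was 1.81 (standard error 0.57), without a call. BATKO mice were not sampled at 6 or 12 h in the data used here, and the difference from WT mice was not tested.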

How the data were processed

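Total RNA of the BAT was extracted with Trizol and made into total RNA libraries. Reads were aligned by the authors to GRCm38 (mm10) with Bowtie, those of low alignment quality were discarded, and the authors deposited raw read counts per gene. Gene annotation and strand setting are not given in the sources used here. The table lists 55341 genes, of which 14 symbols had been turned into dates by a spreadsheet (0.0316% of the counts) and name no gene.

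Counts were scaled by TMM and fitted with the quasi-likelihood test of edgeR 4.0.16 (R 4.3.3) over the 20 WT mice, with groups from the sample labels and Benjamini-Hochberg adjustment. Genes with a mean normalized count of 10 or less were left out. Alternatives were DESeq2 1.42.0, other scalings, filters and sets of mice, and each mouse left out. The script was tested on simulated counts. Nothing states that the mice were housed or processed separately, so p-values measure the spread between these samples.

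Genes named were the 12 largest changes in each direction among called genes (mean count above 50, groups not overlapping) and the 3 lowest adjusted p-values in each direction. Up to 4 called genes per list (all in the clock lists) and 13 genes set by name were added. A further 25 were named after their values were seen, among them Mc2r, Arntl, Dbp, Per3, Tef and Tsc22d1. The comparison, the 47 gene lists and the tests were chosen with earlier results of these data known. Positions are from GENCODE release 21 of the mouse (GRCm38), and promoter sequences from RefSeq. Some genes that this rule selects are not reported here. The cold and diet experiments were not used.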

Additional observations from a re-analysis of the deposited data

Results flagged for a closer look

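For the 94 genes named, the mitochondrial share and the muscle sum, each time point was searched for a single mouse far from the other 3, by its gap to the nearest one divided by the range of the group. Such a mouse was found in 17 of 192 groups, and 9.6 are due by chance. At 6 h, mouse B12 stood apart for Id2 (0.853), Adrb3 (0.852), Arntl (0.901) and Fbn1 (0.862). It was below the others for Id2, at 294 against 629 to 687, and above them for Adrb3, at 1879 against 834 to 989. Other mice at 6 h were B17 for Plin1 (0.917), B13 for Sqle (0.83) and B15 for Ucp1 (0.836).

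At 12 h, mouse B19 had high counts of the muscle genes Pgam2 (0.847), Pygm (0.921), Eno3 (0.946) and Cmya5 (0.859). It also had the highest muscle sum of that group. B23, with the fewest counts of the 8 mice (7805938), stood apart for Fhl3 (0.909) and Arntl (0.94), the latter at 72.4 against 8.16 to 12 in the others. B20 did so for Cdsn (0.836), Adipoq (0.835) and Pnpla2 (0.839), and B21 for Thra (0.843). The part of these mice in the calls is given by the fits that leave them out, and its origin was not tested.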

How the results depend on the processing

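Of the 94 genes named, 0 changed the side of their call to the opposite one under any of the 17 settings. DESeq2 gave 351 upregulated genes, with no filter 315 were downregulated, and all 30 mice of the table gave 119 upregulated. With the muscle level in the model 16 and 12 genes were called, and 57 and 50 without B12 and B19, both chosen after seeing the data. Leaving out each mouse gave 65 to 221 upregulated and 40 to 192 downregulated genes, and upregulated genes were 42.9 to 64% of the calls. Genes higher both at 3 h against PTU and at 12 h against 6 h were 40 with DESeq2, 33 with no filter, 6 with 30 mice, 4 with the muscle level, 8 without B12 and B19, and 7 to 18 with a mouse left out. Genes lower at 3 h and higher at 12 h were 45, 40, 12, 3, 9 and 8 to 36 in this order, and 15 with the 8 mice alone. Genes higher at 24 h and at 12 h were 185 with DESeq2, 59 with 30 mice, 12 with the muscle level, 35 without B12 and B19, and 38 to 105 with a mouse left out. Genes lower at both were 43 with 30 mice, 10 with the muscle level, 13 without B12 and B19, and 20 to 53 with a mouse left out. Clock genes upregulated were 9 with no filter, 8 with the 8 mice alone, 3 with the muscle level and 3 without B12 and B19. Those downregulated were 0 in these last settings, and 0 to 1 with a mouse left out. Cholesterol genes upregulated were 0 with the muscle level, 5 without B12 and B19, and 4 to 8 with a mouse left out. The difference in mitochondrial share was 3.39 to 4.95 points with a mouse left out. The cause of these changes was not tested.

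No paired analysis was possible because no mouse number occurs both at 6 h and at 12 h, and the numbers shared by WT and BATKO groups belong to different mice. The depth of 7805938 to 13512537 counts limits what can be said of genes near the count filter.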
